A study of Xenopus laevis with 3 samples.

Results

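Ion channel genes of the larval Xenopus inner ear are described here, comprising the voltage-gated and ligand-gated channels with their auxiliary subunits and the intracellular channels. They were chosen by symbol alone, as the frog probe sets whose single annotated symbol begins with the name of a potassium, sodium, calcium, chloride, TRP, acid-sensing, purinergic, glutamate, GABA, nicotinic or calcium release channel. The channels kcnq1, kcne1, kcnj10, kcnma1 and clic5 were left out by that rule. This gave 65 genes on 91 probe sets, out of 9240 genes with a single symbol and 32475 frog probe sets. Copies of a gene on the L and S subgenomes of this allotetraploid frog were counted together, and a gene value is the mean of its highest probe set over the arrays. Inner ears were taken from larvae of stages 56 to 58, aged 38 to 44 days after fertilization, in pools of 10, 7 and 8 animals for replicates 1, 2 and 3. Each pool was hybridized to 1 array, so the 3 arrays describe a single condition and allow no comparison between conditions. The mean body weight of the larvae was lowest in the pool of replicate 3, though the SDs of the pools overlapped. The part of body weight in the values was not tested. As each array is a pool of dissected inner ears, the values average over the cell types of the tissue taken. Fewer cells of a type cannot be told apart from less RNA per cell. Skeletal muscle markers also had signal, as given below, and the tissue from which a value comes was not tested.

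In the inner ear, hair cells turn deflection of the hair bundle into a potassium and calcium current, and voltage-gated calcium channels at the base of the cell then trigger the release of glutamate onto the dendrites of eighth nerve neurons. Potassium channels set the resting potential and the timing of hair cells and neurons, and the epithelia around the endolymph recycle potassium. Efferent fibres release acetylcholine onto hair cells, where it acts through nicotinic receptors. Many channels are complexes of a pore-forming subunit and auxiliary subunits, which set how much channel reaches the membrane and how fast it opens and closes.

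All values below are GCRMA values, which are log2 intensities that were background corrected and normalized between arrays, and a gene was called detected at a value of 4 or higher. The arrays had medians of 7.49, 7.50 and 7.53, and Pearson's r between them was 0.994 to 0.996 over the frog probe sets and 0.972 to 0.995 over the 91 channel probe sets. Among markers of the labelled tissue, 5 of the 6 otic epithelium genes with a probe set were detected, beside 79.9% of all genes with a single symbol. The detected ones had 10.23 to 15.02, and pax8 had 1.93. From the hair cell list myo6, calb1 and pvalb had a probe set and were detected, while the other 16 of its 19 genes, including the defining myo7a, pou4f3 and otof, were not analysed here. Values of different probe sets also depend on how well their probes hybridize, so each is read against 4 and not as an order of RNA amounts.

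Of the 65 channel genes, 42 were detected (64.6%, exact binomial 95% interval 51.8 to 76.1%), beside 79.9% of all genes with a single symbol counted in the same way. Counted by probe set, 56 of 91 (61.5%) had a mean of 4 or higher, beside 64.8% of all frog probe sets. The frog probe sets include 16701 without a symbol, whereas each channel probe set has a single one. The shares by probe set, here and for limma below, are therefore of unlike sets. limma's one-sided test, with p-values adjusted after Benjamini and Hochberg across the frog probe sets, called 41 of the 65 genes above 4 (63.1%), beside 78.7% of all genes, and 55 of the 91 probe sets (60.4%), beside 63.1% of the frog probe sets. Genes with more probe sets have more chances to reach 4, and 45 of the channel genes had a single probe set. Of these 45 genes 28 were detected (62.2%), where 74.2% of all genes with 1 probe set were, and of the 20 with several probe sets 14 were (70.0%), where 87.6% of all such genes were. Few values lay just under the threshold. A value under 3 was found for 20 genes (30.8%), beside 17.9% of all genes under 3. Of the 65 channel genes 18 lay under 2.2 (27.7%), and the share of all genes under 2.2 was not counted. A value from 3 to under 4 was found for 3 genes (4.62%), beside 2.26% of all genes. At the upper end 12 channel genes had 10 or higher (18.5%), beside 44.8% of all genes, and the median was 6.21 for the channel genes and 9.60 for all genes. These shares are descriptions of a list of genes and were not tested.

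**Figure D1:**
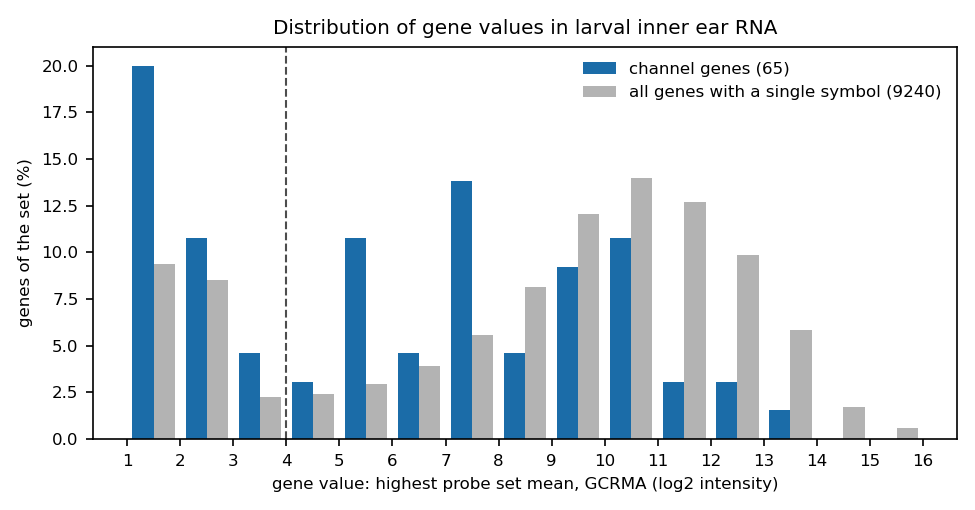
Share of genes (%) by gene value (GCRMA, log2 intensity, in bins 1 wide) for the 65 channel genes and for all 9240 genes with a single symbol, with a dashed line at the threshold of 4. The channel genes had 13 members between 1 and 2, 20.0% of the set where 9.36% of all genes lay, and no member at 14 or higher.

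Pore-forming subunits of the voltage-gated channels in this list were mostly at the floor of the arrays. The potassium channel kcnq1, left out by the rule and so not counted, had 10.60 on one probe set and 2.43 on another. The name of the higher one carries the letter A, described below. The other genes left out, kcne1, kcnj10, kcnma1 and clic5, had means of 4.89, 11.10, 6.92 and 8.63, and are in none of the shares of channel genes. Among potassium channels, kcna1 (probe set Xl2.825.1.S1_at), a delayed rectifier of axons and nerve terminals, had 7.92, 7.17 and 9.09 in replicates 1, 2 and 3, with a mean of 8.06 ± 0.97 (SD, n = 3 arrays; limma adjusted p = 0.000738 for a mean above 4). Its 3 arrays were all well above 4, with replicate 3 the highest and replicate 2 the lowest. The A-type channels kcna4 and kcnd3, whose currents inactivate rapidly, had 6.42, 6.43 and 5.998 and 6.12, 6.42 and 6.09, with means of 6.28 ± 0.25 and 6.21 ± 0.19 (SD, n = 3; limma adjusted p = 0.000252 and 0.000213). A second probe set of kcna4 had 6.06 ± 0.06 (SD, n = 3). It is built on the same GenBank record and carries the suffix s, the manufacturer's mark for probes shared by several transcripts. It is therefore no independent measure. The other members of these families, kcna2, kcna3, kcna7 and kcnb2, had 1.86 to 2.03 on each probe set chosen, with an SD of 0.008 or less. A further probe set of kcnb2 lay at 1.93. kcna2, which joins kcna1 in many axonal channels, was thus at the floor on its single probe set, at 1.91 ± 0.006 (SD, n = 3).

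The pore-forming sodium and calcium channel genes were at the floor of the arrays as well. scn1a, a pore-forming sodium channel of neurons, had 1.98 ± 0.008 (SD, n = 3) on one probe set and 1.84 on another. cacna1a, a presynaptic calcium channel of neurons, had 1.92 ± 0.006 and 1.88 on its probe sets, and cacna1s, the voltage sensor of skeletal muscle, had 2.06 ± 0.05 (SD, n = 3). For scn1a and for cacna1a the probe sets of the gene have, by their names, opposite orientations on the same GenBank record. They are therefore not independent. All 3 genes had every array under 4, and they were the only members of their families with a single-symbol probe set. The calcium channel cacna1d had no such probe set and was not analysed here. In all, 3 of the 10 pore-forming genes of the voltage-gated potassium, sodium and calcium channels were detected (30.0%), while 11 of the 16 auxiliary subunits were (68.8%), beside 79.9% of all genes. The intervals of these shares, 6.67 to 65.2% and 41.3 to 89.0%, overlap, and the difference was not tested.

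**Figure D2:**
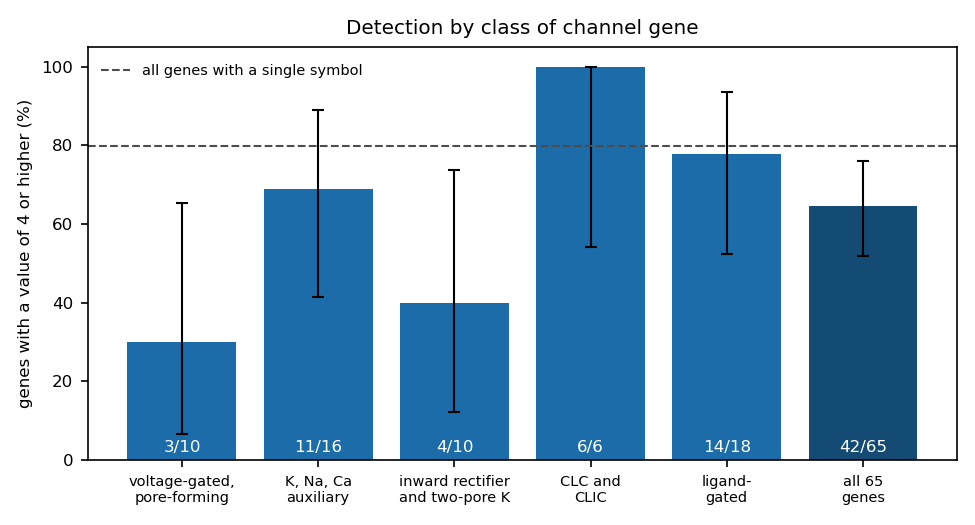
Share of channel genes with a GCRMA value of 4 or higher (%, bars) in 5 classes and among all 65 genes, with the counts in the bars, exact binomial 95% intervals as error bars and the 79.9% of all genes with a single symbol as a dashed line. The share was 30.0% for pore-forming voltage-gated subunits and 100% for the 6 CLC and CLIC genes. The intervals treat genes as independent and do not measure the spread between animals or arrays. No class was tested against the dashed line.

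Where 79.9% of all genes were detected, all 3 sodium channel beta subunits were. These are single-pass membrane proteins with an immunoglobulin-like domain, which adjust the gating of sodium channels and take part in cell adhesion. scn2b had 7.20, 6.20 and 7.73 in replicates 1, 2 and 3, and scn4b had 7.91, 6.92 and 7.93, so that replicate 2 was the lowest for both. scn3b had 7.56, 8.40 and 6.82, with replicate 2 the highest. Their means were 7.04 ± 0.78, 7.59 ± 0.58 and 7.60 ± 0.79 (SD, n = 3 each; limma adjusted p = 0.0011, 0.000235 and 0.000609). A further probe set annotated as scn4b had 1.98 ± 0.04 (SD, n = 3), so the call for this gene rests on one of its probe sets.

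Of the calcium channel auxiliary subunits, cacng5 and cacnb1 were detected. cacng5, a member of the gamma family that also associates with AMPA receptors, had 7.73, 8.02 and 7.61, a mean of 7.78 ± 0.21 (SD, n = 3; limma adjusted p = 1.74e-05). cacnb1, the cytoplasmic beta subunit that in skeletal muscle belongs to the same complex as cacna1s, had 7.30, 7.58 and 7.50 on one probe set, a mean of 7.46 ± 0.15, and 2.30, 2.14 and 3.06 on another, a mean of 2.50 ± 0.49 (SD, n = 3 each). cacnb3, another beta subunit, was at the floor on the probe sets of both its copies, at 2.02 and 2.04. cacna2d3, an extracellular subunit, and cacng1, the gamma subunit of skeletal muscle, had 1.96 ± 0.007 and 1.94 ± 0.008 (SD, n = 3 each). Arrays of the detected probe sets in this family lay at 7.30 or higher and those of the others at 3.06 or lower.

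Potassium channel auxiliary subunits comprised 8 genes, of which 6 were detected and called by limma, where 79.9% of all genes were detected and 78.7% called. kcne5, a small single-pass subunit related to kcne1, had 10.67, 10.79 and 10.54, a mean of 10.67 ± 0.12 (SD, n = 3; limma adjusted p = 3.68e-07), and a second probe set of it had 7.89 ± 0.15. kcne3, a subunit of the same family that holds kcnq1 open in epithelia, had 5.57, 6.03 and 5.24, a mean of 5.61 ± 0.40 (SD, n = 3; limma adjusted p = 0.00184). kcnmb3, a beta subunit of the large-conductance calcium-activated channel whose pore is encoded by kcnma1, had 6.02, 5.97 and 5.91, a mean of 5.97 ± 0.06 (SD, n = 3; limma adjusted p = 0.000212), and its arrays agreed closely. The 3 kcnip genes encode calcium-binding partners of kcnd channels such as kcnd3. kcnip4 had 7.53, 6.94 and 7.72 and kcnip1 had 4.55, 4.87 and 5.42, with means of 7.40 ± 0.41 and 4.95 ± 0.44 (SD, n = 3; limma adjusted p = 0.000114 and 0.0115), while kcnip2 stayed under 4 on every array, at 3.60, 3.67 and 3.42. kcnab3 and kcnab2 encode cytoplasmic beta subunits of kcna channels. kcnab3 had 5.63, 4.44 and 6.99, a mean of 5.69 ± 1.28 (SD, n = 3), the widest spread of any detected channel gene. It was called by limma at an adjusted p of 0.0333, but not without replicate 1 (adjusted p = 0.0741) or replicate 3 (adjusted p = 0.061). kcnab2 had 1.90 to 2.89 on its 3 probe sets and was not detected.

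**Figure D3:**
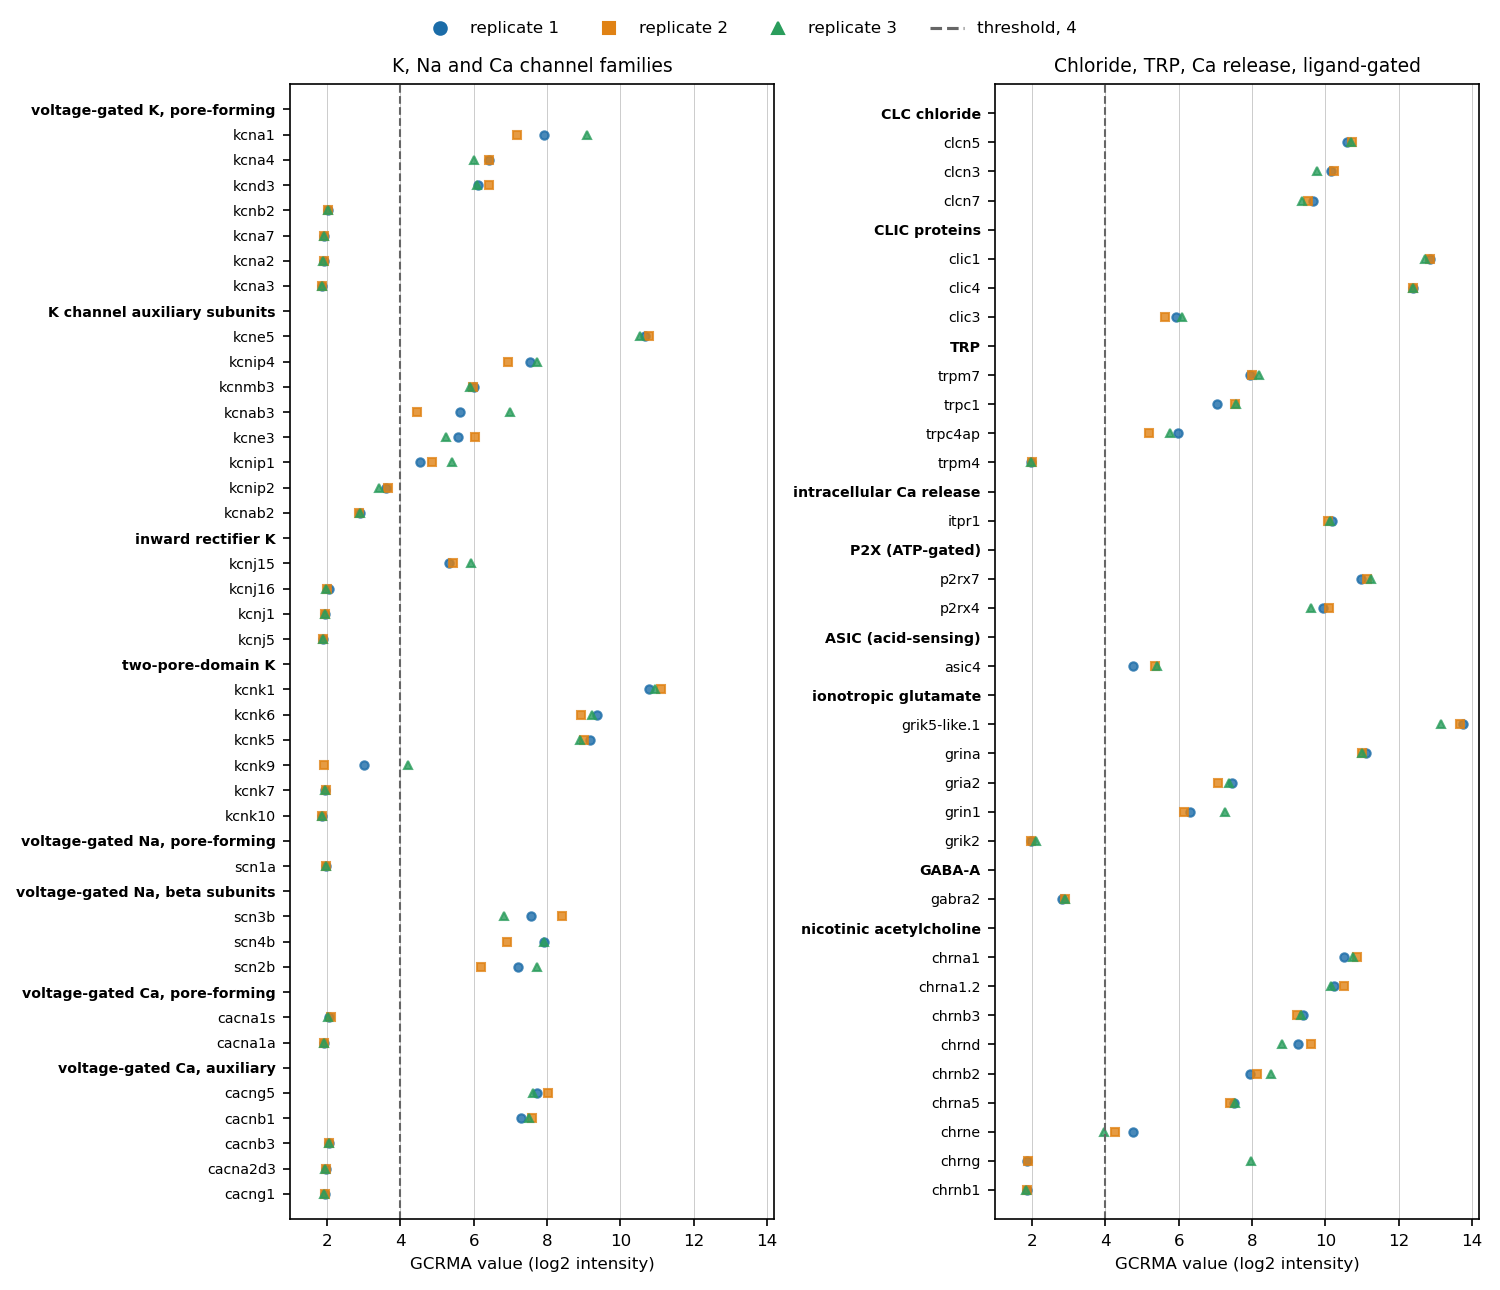
GCRMA values (log2 intensity, horizontal axis) of the 65 channel genes in each of the 3 arrays, 1 row per gene and 1 symbol per replicate, grouped by family, with a dashed line at 4. Most genes lie either near 2 or clearly above 4, the pore-forming sodium and calcium channels lie near 2, and chrng lies at 1.87 and 1.88 in replicates 1 and 2 and at 7.98 in replicate 3.

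Among potassium channels outside the voltage-gated families, which set the resting potential, 4 of 10 genes were detected (40.0%, interval 12.2 to 73.8%), beside 79.9% of all genes. kcnk1, a two-pore-domain channel, had 10.79, 11.10 and 10.95, a mean of 10.95 ± 0.15 for the L copy (SD, n = 3; limma adjusted p = 4.61e-07), and the S copy had 8.57 ± 0.27. kcnk6, a close relative of kcnk1, had 9.36, 8.92 and 9.24 on the probe set of its L copy, a mean of 9.17 ± 0.23 (SD, n = 3), and 2.28 ± 0.05 on that of its S copy. kcnk5, a two-pore channel that opens at alkaline pH and serves epithelial transport, had 9.16, 9.02 and 8.89, a mean of 9.02 ± 0.14, and 5.09 ± 0.33 on a further probe set (SD, n = 3 each). The arrays of these 3 genes never came near 4 on their highest probe set. kcnk7 and kcnk10 were at the floor, at 1.96 ± 0.01 and 1.87 ± 0.001 (SD, n = 3 each). kcnk9, an acid-sensitive channel of neurons, had 3.00, 1.91 and 4.21 in replicates 1, 2 and 3, so that only replicate 3 passed 4, and its mean of 3.04 ± 1.15 (SD, n = 3) was not called. Of the inward rectifiers, kcnj15 had 5.34, 5.42 and 5.94, a mean of 5.57 ± 0.32 (SD, n = 3; limma adjusted p = 0.00137). kcnj16, which in other tissues pairs with kcnj10 or kcnj15, had 2.01 ± 0.04, and the kidney channel kcnj1 and the G protein-gated kcnj5 had 1.95 ± 0.007 and 1.90 ± 0.004 (SD, n = 3 each).

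All 6 genes of the chloride channel families were detected, beside 79.9% of all genes. clcn3, clcn5 and clcn7 encode proton-coupled chloride transporters of endosomes and lysosomes, and had 10.06 ± 0.25, 10.67 ± 0.07 and 9.52 ± 0.15 (SD, n = 3 each), with every array of these probe sets at 9.37 or higher. The 3 probe sets of clcn3 had means of 7.32 to 10.06. The only probe set of clcn5 carries the suffix s, with which the manufacturer marks probes shared by several transcripts, so its value may include other transcripts. CLIC proteins are soluble proteins related to glutathione transferases, some of which can insert into membranes and several of which associate with the actin cytoskeleton. clic1 had 12.85, 12.85 and 12.71, a mean of 12.80 ± 0.08 for the L copy, and 11.46 for the S copy. clic4 had 12.40, 12.39 and 12.38 on its highest probe set, a mean of 12.39 ± 0.01 (SD, n = 3), which was the smallest SD of any detected channel gene. This was a probe set of the S copy. Another of the S copy had 8.80 ± 0.21 and that of the L copy had 11.12 ± 0.26 (SD, n = 3 each). clic3 had 5.93, 5.62 and 6.08, a mean of 5.88 ± 0.23 (SD, n = 3; limma adjusted p = 0.000482).

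Among the TRP channels and the calcium release channels, trpm7, trpc1 and itpr1 were detected. trpm7, a divalent cation channel fused to a kinase, had 7.96, 8.01 and 8.19, a mean of 8.05 ± 0.12 (SD, n = 3; limma adjusted p = 6.13e-06). trpc1, a subunit of receptor-operated cation channels, had 7.03, 7.54 and 7.55, a mean of 7.38 ± 0.30 (SD, n = 3), on one probe set but 2.42 and 2.32 on the other two. trpm4, a monovalent cation channel opened by calcium, was at the floor at 1.98 ± 0.01 (SD, n = 3). trpc4ap matches the TRP pattern by name but encodes an adaptor protein and not a channel, and had 5.65 ± 0.41 (SD, n = 3). itpr1, the inositol trisphosphate receptor of the endoplasmic reticulum, had 10.18, 10.07 and 10.14, a mean of 10.13 ± 0.06, and 8.96 ± 0.14 on a second probe set (SD, n = 3 each; limma adjusted p = 2.51e-07 and 1.82e-06). No single-symbol probe set carried the name of a ryanodine receptor, a hyperpolarization-activated channel or a glycine receptor, so these were not analysed here.

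The 2 ATP-gated channel genes were detected on all 4 of their probe sets, and the 1 acid-sensing gene on its only probe set. Of all genes 79.9% were detected, and 64.8% of all frog probe sets had a mean of 4 or higher. p2rx7, best known from macrophages and glia, had 10.97, 11.15 and 11.24, a mean of 11.12 ± 0.14 (SD, n = 3; limma adjusted p = 3.38e-07). p2rx4 had 9.92, 10.10 and 9.60, a mean of 9.88 ± 0.25 (SD, n = 3), on its highest probe set and 7.36 ± 0.52 and 5.07 ± 0.33 on the others. Its 3 probe sets were built on different GenBank records of the gene, and replicate 3 was the lowest array on each. asic4, a member of the acid-sensing family, had 4.76, 5.34 and 5.41, a mean of 5.17 ± 0.36 (SD, n = 3; limma adjusted p = 0.00388). Of the leukocyte markers given beside p2rx7, 3 of 4 were detected, where 79.9% of all genes were, and ptprc was not detected. The detected markers cd74, lcp1 and coro1a had means of 12.4, 7.30 and 4.59. Their median was 7.27 to 7.34 on the 3 arrays, which is the value of lcp1. The part of these markers in the value of p2rx7 was not tested.

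The glutamate receptor group held the highest value of all channel genes. grik5-like.1, which RefSeq lists with the synonym kbp and which resembles kainate receptor subunits, had 13.75, 13.68 and 13.17, a mean of 13.53 ± 0.32 (SD, n = 3; limma adjusted p = 1e-06), on a probe set of its L copy (Xl2.1198.1.S1_at). A second probe set of the L copy had 13.09 ± 0.19 and that of the S copy had 12.07 ± 0.22 (SD, n = 3 each), so each probe set of the gene was far above 4. gria2, the AMPA receptor subunit that limits calcium entry and serves at hair cell afferent synapses, had 7.45, 7.07 and 7.36, a mean of 7.29 ± 0.20 (SD, n = 3; limma adjusted p = 3.56e-05). grin1, the subunit required in all NMDA receptors, had 6.30, 6.15 and 7.26, a mean of 6.57 ± 0.60 (SD, n = 3; limma adjusted p = 0.00099), with replicate 3 the highest. grik2, a kainate receptor subunit, was at the floor on both its probe sets, at 2.02 and 1.86. By their names these have opposite orientations on the same GenBank record, so they are not independent. grina had 11.04 ± 0.07 (SD, n = 3), and it encodes a membrane protein associated with glutamate receptors and not a receptor subunit. gabra2, the only GABA receptor subunit with a single-symbol probe set, had 2.81, 2.89 and 2.91 and was not detected.

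Nicotinic acetylcholine receptor subunits of nerve and of muscle were both detected. Of the neuronal subunits, chrnb3 had 9.38, 9.22 and 9.35, a mean of 9.32 ± 0.08, and chrnb2 had 7.96, 8.13 and 8.51, a mean of 8.20 ± 0.28 (SD, n = 3; limma adjusted p = 6.96e-07 and 1.75e-05). chrna5, an accessory subunit of neuronal receptors, had 7.50, 7.40 and 7.53, a mean of 7.48 ± 0.07 (SD, n = 3; limma adjusted p = 1.35e-05). Every array of these neuronal subunits lay at 7.40 or higher. The subunits chrna9 and chrna10, which in other vertebrates form the efferent receptor of hair cells, were not analysed here.

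The muscle receptor is built from alpha, beta and delta subunits with a gamma subunit in embryonic muscle, which is replaced by epsilon in mature muscle. chrna1 had 10.52, 10.85 and 10.77, a mean of 10.71 ± 0.17, and chrna1.2, a second gene of the alpha subunit, had 10.22, 10.50 and 10.15, a mean of 10.29 ± 0.19 (SD, n = 3 each). The probe set of chrna1.2 carries the suffix s, with which the manufacturer marks probes shared by several transcripts, so the values of the alpha subunit genes may not be independent. chrnd had 9.24, 9.62 and 8.81, a mean of 9.22 ± 0.40 (SD, n = 3; limma adjusted p = 1.62e-05), while chrnb1 was at the floor on each array, at 1.86 ± 0.008. chrne, the epsilon subunit, had 4.75, 4.27 and 3.97, a mean of 4.33 ± 0.39 (SD, n = 3), which reached 4 but was not called by limma (adjusted p = 0.122), and was the only channel gene for which the threshold and the test disagreed. chrng, the gamma subunit, measured by probe set Xl2.1120.1.S1_at, had 1.87 and 1.88 in replicates 1 and 2 and 7.98 in replicate 3. Its mean of 3.91 ± 3.52 (SD, n = 3; limma adjusted p = 0.806) describes none of the arrays. Replicate 3 exceeded the other arrays by 5 or more for 7 of all 9240 genes (0.0758%), of which chrng was the only channel gene, and 39 of all genes (0.422%) reached 4 in replicate 3 alone. Arrays on both sides of 4 were found for 3 channel genes, chrne, chrng and kcnk9 (4.62%), beside 1.69% of all genes.

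The muscle markers on the same arrays moved the other way. Of 20 skeletal muscle markers 15 had a probe set and 12 were detected, where 79.9% of all genes were. The mean over the 15 was 9.13, 9.20 and 8.01 in replicates 1, 2 and 3. Creatine kinase ckm had 12.74, 12.87 and 11.32, and the fast troponin gene tnnc2 had 11.02, 11.10 and 8.48. Of the 12 detected muscle markers 11 were lowest in replicate 3, all but atp2a1, and the share of all genes lowest in replicate 3 was not counted. The median difference of replicate 3 from replicate 2 over the 12 was -1.55, while the myogenic factors myog and myod1 were at the floor at 2.05 and 1.96. chrnd and chrne were likewise lowest in replicate 3, and chrna1 and chrna1.2 differed by 0.33 and 0.35 over the arrays. chrng was the only muscle-type subunit with its highest array in replicate 3. RefSeq also lists chrng among the synonyms of chrnd, and the identity of these genes was not checked. The part of muscle tissue, or of the neuron and red cell markers that were higher in replicate 3, in these values was not tested.

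**Figure D4:**
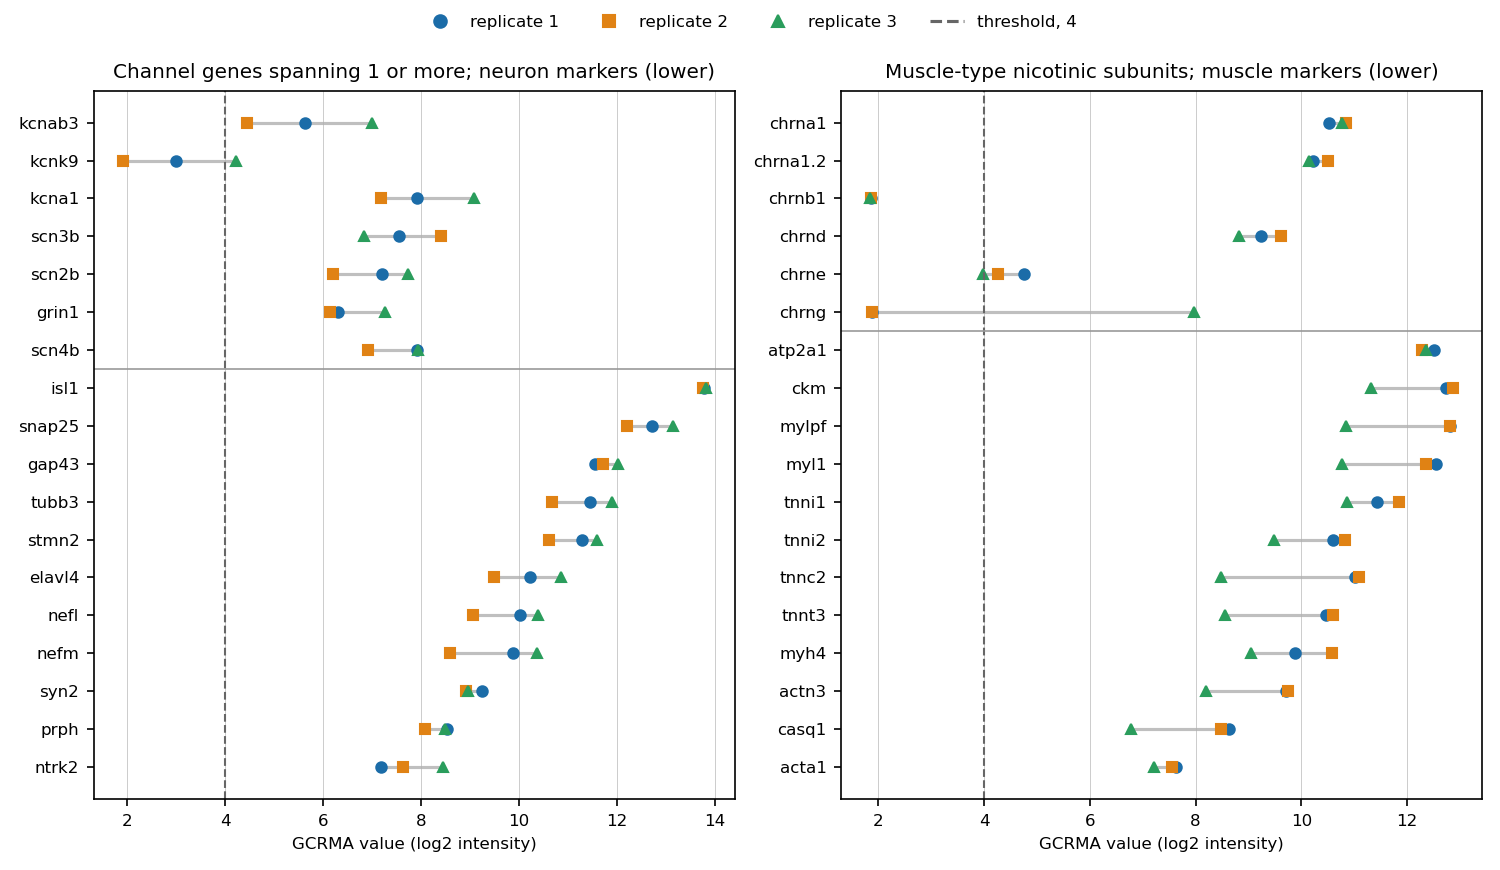
GCRMA values (log2 intensity, horizontal axis) in replicates 1, 2 and 3, with a dashed line at 4 and grey bars over the range. Left, the 7 channel genes other than chrng whose arrays spanned 1 or more, above the 11 detected neuron markers. Right, the muscle-type nicotinic subunits above the 12 detected skeletal muscle markers. Replicate 3 is highest for 6 of the 7 channel genes and for 9 of the 11 neuron markers, and lowest for 11 of the 12 muscle markers, while chrng has 7.98 in replicate 3 and under 2 in the others. The shares of all genes highest or lowest in replicate 3 were not counted.

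A few channel genes differed between the arrays. Among the 42 detected channel genes the median SD was 0.23, where it was 0.14 for all detected genes, and the arrays spanned 1 or more for 6 of 42 (14.3%), beside 5.16% of all detected genes. Among genes with values from 4 to under 9 the counts were 6 of 24 channel genes (25.0%, interval 9.77 to 46.7%) beside 13.3% of all. The 6 genes were kcnab3, kcna1, scn3b, scn2b, grin1 and scn4b, with spans of 2.55, 1.92, 1.58, 1.54, 1.11 and 1.01, and the undetected kcnk9 spanned 2.30. All of these genes except scn3b had their lowest value in replicate 2 and their highest in replicate 3, an order found for 8 of the 42 detected channel genes (19.0%) and 14.8% of all detected genes. Replicate 3 exceeded replicate 2 by 1 or more in 5 of the 42 detected channel genes (11.9%), beside 2.03% of all detected genes, or in 5 of the 24 from 4 to under 9 (20.8%), beside 4.8%. scn3b alone went the other way by that much (2.38%), beside 1.56% of all detected genes.

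Neuron markers were also higher in replicate 3 than in replicate 2. Of 17 such markers 15 had a probe set and 11 were detected, where 79.9% of all genes were. All 11 were higher in replicate 3 than in replicate 2, with a median difference of 0.93, and the share of all genes that were so was not counted. The full order, with replicate 2 lowest and replicate 3 highest, was found for 14.8% of all detected genes and for 7 of the 11 markers. Among the others gap43 and ntrk2 were lowest in replicate 1, and prph and syn2 were highest in replicate 1. The neurofilament gene nefm had 9.88, 8.59 and 10.36 in replicates 1, 2 and 3, and the synaptic gene snap25 had 12.71, 12.22 and 13.14. Over the 15 markers the mean was 8.43, 8.04 and 8.79, and elavl3, map2, syn1 and syt1 were under 4. The Schwann cell markers did not share this order, since their detected members had medians of 14.44, 14.58 and 14.50. Of the 3 hair cell markers, calb1 had 8.19, 8.15 and 10.79 and pvalb had 8.88, 8.57 and 9.24, both highest in replicate 3, while myo6 had 12.48, 12.32 and 12.37 and was highest in replicate 1. Several red cell markers were also highest in replicate 3, but not all. Of 8 such markers 6 had a probe set and all of these were detected by their mean, though hba1 and rhag were under 4 in replicates 1 and 2. The mean over the list was 7.59, 7.79 and 8.89 in replicates 1, 2 and 3. Replicate 3 was above replicate 2 for 5 of 6 and the highest array for 4. alas2 was highest in replicate 1 (10.51, 10.08 and 10.34) and gypc in replicate 2 (4.53, 5.11 and 4.63). The globin gene hba1 had 2.56, 3.498 and 7.75, while hba2 had 14.37, 14.23 and 14.42. The part of nerve, hair cells or blood in the values of kcna1, kcnab3, scn2b, scn4b, grin1 and kcnk9 was not tested.

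Probe sets of the same gene gave different calls for several channels. Of the 20 channel genes with several probe sets, 4 had probe sets on both sides of 4 (20.0%), beside 31.2% of all genes with several probe sets. These were cacnb1, kcnk6, scn4b and trpc1, with 7.46 and 2.50, 9.17 and 2.28, 7.59 and 1.98, and 7.38 and 2.32 as their highest and lowest means. For kcnk6 the probe sets are annotated with different copies, L for the detected one and S for the other, while for cacnb1, scn4b and trpc1 they carry the same copy. Probe sets of both copies were present for 6 channel genes. Both copies were detected for 4 of them, clic1, clic4, grik5-like.1 and kcnk1, beside 76.2% of the 2009 genes of the array with both copies, and neither copy for cacnb3. RefSeq lists clic5 among the synonyms of the L copy of clic4, and kcnj1 among those of kcnj15. The identity of these genes was not checked. With the copies counted apart, 46 of 72 symbols were detected (63.9%), beside 79.1% of all single symbols counted apart.

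**Figure D5:**
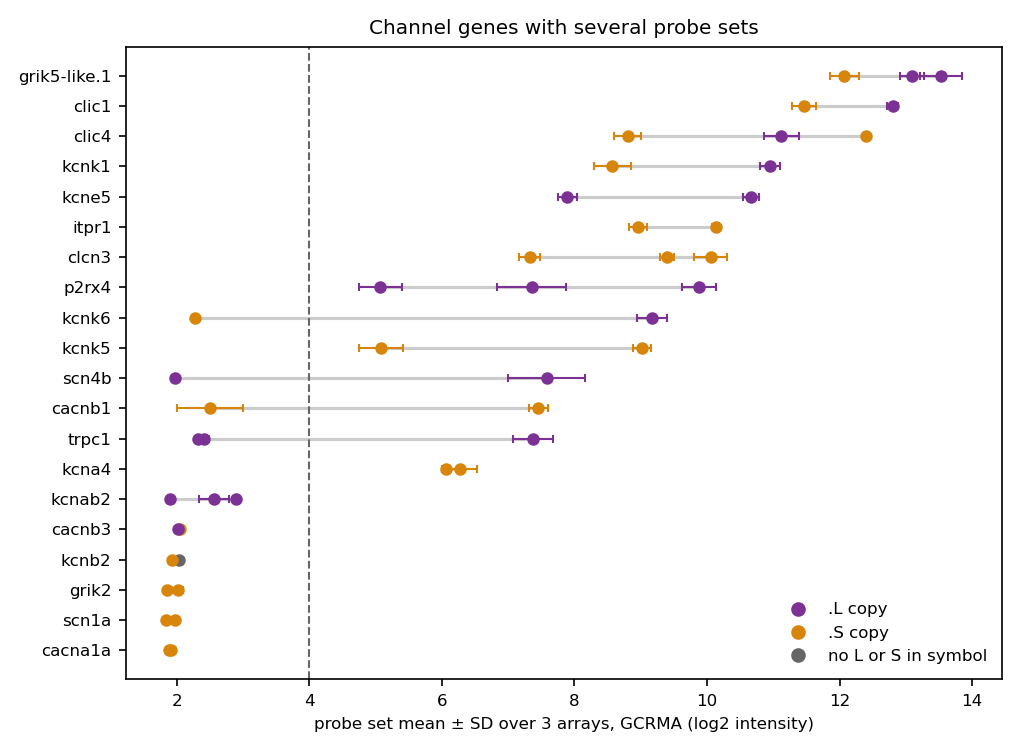
Mean ± SD over the 3 arrays (GCRMA, log2 intensity, horizontal axis) of each probe set of the 20 channel genes with several probe sets, coloured by the copy of the gene in the annotation, with grey bars joining the probe sets of a gene and a dashed line at 4. Probe sets of kcnk6, scn4b, cacnb1 and trpc1 lie on both sides of 4, those of 10 genes lie above it and those of 6 genes below it.

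The names of 9 of the 91 channel probe sets carry the letter A, which the manufacturer uses for the antisense orientation of the source sequence, and the orientation was not checked here. Of these 9, 4 had a mean of 4 or higher, namely those behind the values of cacnb1, scn2b, kcnk5 and chrna1.2. The calls of cacnb1, scn2b and chrna1.2 therefore rest on such a probe set alone, while kcnk5 was also detected by another, at 5.09. For scn1a, cacna1a and grik2 the letter A probe set shares its GenBank record with the other probe set. Probe sets of opposite orientation cannot both match the mRNA, so a floor on both is no second support. The values given for cacna1a, 1.92, and for kcnb2, 2.03, are those of letter A probe sets.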

How the data were processed

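Inner ear RNA of larval X. laevis was hybridized to 3 Affymetrix GeneChips (the second X. laevis design), 1 for each pool of animals. The deposited values are log2 intensities per probe set, which the authors made by GCRMA, a method that corrects background, normalizes between arrays and summarizes the probes of a set. The software version is not given in the sources used here, and the number of arrays limits the precision.

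Symbols came from the platform annotation, in which 15495 of 32475 frog probe sets have a single symbol, 279 have several and 16701 have none. RefSeq (assembly v10.1) held 70 of the 72 member gene IDs, with no changed symbol. No sequences were used.

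A gene was called detected at a value of 4 or higher, the threshold in the study's methods. The R package limma (3.58.1, under R 4.3.3) was fitted to every frog probe set. Its moderated test asked, on one side, whether the mean lay above 4, the prior variance followed the mean, and p-values were adjusted after Benjamini and Hochberg. When checked on simulated data, this step on 32475 probe sets called 63% of those seeded at 4.5 and 92% at 5. Shares have exact binomial 95% intervals (scipy 1.17.1). Genes were named by rank in their family, disagreement of arrays, probe sets or calls, nearness to 4 and a list of channels of ear, nerve and muscle, which gave 63 of the 65 genes, and kcna7 and chrna5 were added after their values were seen. Members and lists were chosen with earlier results of these data known. The threshold, the summary over arrays and probe sets, the normalization, the arrays used and the details of the fit were varied.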

Additional observations from a re-analysis of the deposited data

How the results depend on the processing

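The count of detected channel genes stayed within 33 to 45 under thresholds of 3, 5 and 6 in place of 4 (45, 40 and 33 genes, beside 82.1%, 77.4% and 74.5% of all genes). Without one replicate at a time it was 42 to 43, beside 79.8 to 79.9% of all genes. It was 42 with the median over arrays or quantile normalization, beside 79.8% and 79.9% of all genes. With every array at 4 or higher or with the median probe set it was 41 (63.1%), beside 79.1% and 77.0% of all genes. With the lowest probe set it was 38 (58.5%), beside 66.6% of all genes. Without the probe sets of letter A, an alternative chosen after seeing the data, 39 of 63 genes were detected (61.9%), beside 77.8% of all genes. Without 5 symbols that match by name (trpc4ap, grina and the kcnip genes) 38 of 60 were (63.3%), beside 79.9% of all genes. These 5 symbols are counted in the shares of families and classes given above. limma called 55 of the 91 probe sets, beside 63.1% of the frog probe sets, and 50 to 57 under its alternatives. The shares of all frog probe sets under those alternatives are not given here. At least 1 gene was detected in 14 of the 17 families under the alternatives of threshold, arrays, normalization and probe set summary, except a threshold of 6, which gave 12. Under those of threshold, arrays and normalization both copies were detected for 4 genes, and with the copies counted apart 37 to 49 symbols (51.4 to 68.1%), beside 73.5 to 81.4% of all symbols. Single genes changed sides as follows. With the lowest probe set cacnb1, kcnk6, scn4b and trpc1 fell under 4, to 2.50, 2.28, 1.98 and 2.32, and trpc1 also with the median probe set, at 2.42. chrne had 3.97 as its lowest array, and chrng had 4.93 without replicate 1 and 4.93 without replicate 2, with adjusted p of 0.479 and 0.5 from limma, and 1.88 without replicate 3. kcnab3 lost its call without a mean-variance trend (adjusted p = 0.0638). No paired analysis was possible because the arrays form a single group.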

Other observations

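The genes for which replicate 3 exceeded the other arrays by 5 or more, as it did for chrng, were picked out after their values were seen. They include the complement genes c3, with 6.21, 7.14 and 13.93 in replicates 1, 2 and 3, and c1s, with 4.98, 5.09 and 10.64. The collagenase gene mmp1 had 2.10, 2.11 and 8.90, and tlrs5, a gene named for the toll-like receptors, had 1.92, 1.92 and 8.92. The others were steap4.1, with 4.02, 5.61 and 11.69, and hmbox1, with 2.12, 1.98 and 9.67. A probe set annotated with both kcnb2.S and kcnb2-a, which is no member because it has several symbols, had 2.10 ± 0.02 (SD, n = 3).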
